A study of Homo sapiens with 6 samples.

Results

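The subunits of the human Mediator complex were followed in SLAM-seq data from MOLM-13 cells. Genes were taken by official symbol, matched through the Entrez identifiers of the deposited tables: MED followed by a number, with or without a final L, together with CDK8, CDK19 and CCNC, leaving out pseudogenes. All 33 genes of this rule were listed, among 25420 genes in all, and were sorted into head (12 genes), middle (8), tail (5) and kinase module (7), with MED14 as the scaffold. MOLM-13 is an established human acute myeloid leukaemia line that carries a KMT2A fusion and an internal tandem duplication of FLT3. Cells received either 10 µM C646, an inhibitor of the acetyltransferases CBP and p300, or the solvent DMSO for 2 h, and cells of both groups were exposed to 100 µM 4-thiouridine (4sU) during the last 1 h. There were 3 libraries per group. In SLAM-seq, 4sU that has been built into new RNA is alkylated and then sequenced as C where the gene has T. Reads with such T>C conversions mark RNA made during labelling, while all reads together give the whole RNA pool. Libraries were made from the 3′ ends of mRNA.

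Mediator is a large complex that stands between transcription factors and RNA polymerase II. Its tail is bound by activators at enhancers, its head and middle modules contact the polymerase and the general factors at the promoter, MED14 runs through the core and holds it together, and the kinase module of CDK8 or CDK19 with cyclin C, MED12 and MED13 binds the core reversibly. CBP and p300 are recruited to many of the same enhancers.

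The 6 libraries held 7252597 to 10225448 reads on 3′ UTRs, of which 8.74 to 8.86% were T>C reads in DMSO and 6.34 to 6.71% in C646. Of the filtered reads of a library, 49.7 to 51.6% lay on 3′ UTRs in DMSO and 56.3 to 62.0% in C646, with C646 replicate 3 highest. All 8 myeloid markers examined had over 50 reads in every library, while the 3 erythroid markers were at 0, and the summed reads of the 3 T cell markers (CD3E and CD2 at 0), 3 B cell markers and 3 epithelial markers (KRT19 and CDH1 at 0) were at most 22, 26 and 14 per library. Neither the labels nor the methods say that the replicates were separate cultures, so the p-values measure the spread between these libraries only.

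Of the 33 Mediator genes, MED22, a head subunit, and MED12L, the paralogue of MED12, had no read in any library, which allows at most 3 reads per library by counting error. CDK7 and POLR2A, which cells in general express, had 0 and 9 reads over all libraries, so a gene at 0 here is one without reads on its listed 3′ UTR entries. MED18, of the head's movable jaw, had 2 reads in DMSO replicate 1 and none elsewhere. The other 30 genes passed the filter on all reads. MED16, MED25 and MED12 had too few T>C reads, and 27 genes were tested for newly made RNA. The 3′ UTR entries of these 3 are short, at 139 bases for MED16, 36 for MED25 and 236 for MED12. Multimapped reads made up 166 of the 69006 reads of the Mediator genes (0.241%). The entries of MED11, MED4, MED31 and MED12L overlap a gene on the other strand (CXCL16, MED4-AS1, TXNDC17 and IGSF10), and none overlaps another gene on its own strand.

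Promoter sequences of RefSeq (GRCh38.p14, 250 bases before to 50 after the start) were at hand for 25 of the 33 genes. The sequence CCGGAAGT, which is bound by ETS factors, occurred on either strand in 6 of these 25 promoters (24%), those of MED7, MED11, MED15, MED17, MED18 and MED29. Of all 27305 promoters 4.44% held it, and of the 6375 promoters of genes tested for T>C reads 10.9% did. The windows of 30 bases around the match are given for the 5 of these genes with enough reads, since 4 of them are among the Mediator genes whose new RNA fell by the criteria used here. Capitals mark the match, and sequences run 5′ to 3′ on the strand of the gene.
MED7, chr5:157142861-157142890, minus strand: cccggaggagaCCGGAAGTtggtttcggct
MED11, chr17:4731417-4731446, plus strand: caccgagagccACTTCCGGaacaagcgtcg
MED15, chr22:20507551-20507580, plus strand: agccctccttcACTTCCGGctcggccgagg
MED29, chr19:39391387-39391416, plus strand: agtcgtaacgcACTTCCGGcggtctacgcg
MED17, chr11:93784196-93784225, plus strand: ctcttataggcCCGGAAGTttaccccaccc
Over all genes tested for T>C reads, 31.6% of those with the match and 33.3% of those without it were called lower. The cAMP response element TGACGTCA, the palindrome bound by CREB, was found in 1 of the 25 promoters, that of MED18 (1.98% of all promoters, 3.67% of those of tested genes). The heat shock sequence GAANNTTC occurred in 4, those of MED19, MED23, MED27 and CDK19 (6.87% of all promoters, 4.71% of those of tested genes). Of tested genes with and without the cAMP element, 36.8% and 32.9% were called lower. For the heat shock sequence these were 29% and 33.3%.

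The first comparison asked which Mediator genes made more or less new RNA when CBP/p300 was inhibited. T>C reads were lower in C646 for 22 of the 27 tested Mediator genes and higher for 5, with a median log2 fold change of −0.76. Over all genes tested, 82.9% were below 0. A call required an adjusted p of at most 0.01 (edgeR's quasi-likelihood test, Benjamini-Hochberg adjustment over all genes) together with a log2 fold change of at least 1 in size. By these criteria 8 Mediator genes were lower (MED11, MED27, MED29, MED7, MED9, MED26, MED14 and MED15) and 1, MED30, was higher. Among all 7722 genes tested, 33% were called lower and 2.97% higher, and the median log2 fold change was −0.83, so that the 8 of 27 lie near the background share. By the adjusted p alone, MED10 and MED13 were also lower, which makes 10 lower and 1 higher (38% and 3.83% of all genes). At an unadjusted p under 0.05, 17 were lower and MED30 alone was higher (54.8% and 6.02% of all genes). Library sizes were those of all reads, so that the fall of T>C reads across all genes is kept in the values. Scaled instead on the T>C reads themselves, the values of these genes moved up by 0.83, the median became 0.070, none was called lower (7.72% of all genes were) and MED30, MED31 and CDK19 were called higher (9.05% of all genes were). By edgeR's adjusted p alone, MED1 (0.89, adjusted p = 0.00046) and CCNC (0.92, adjusted p = 0.0080) were then higher too, and none was lower. The shares of all genes at that p were not counted for this scaling.

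**Figure D1:**
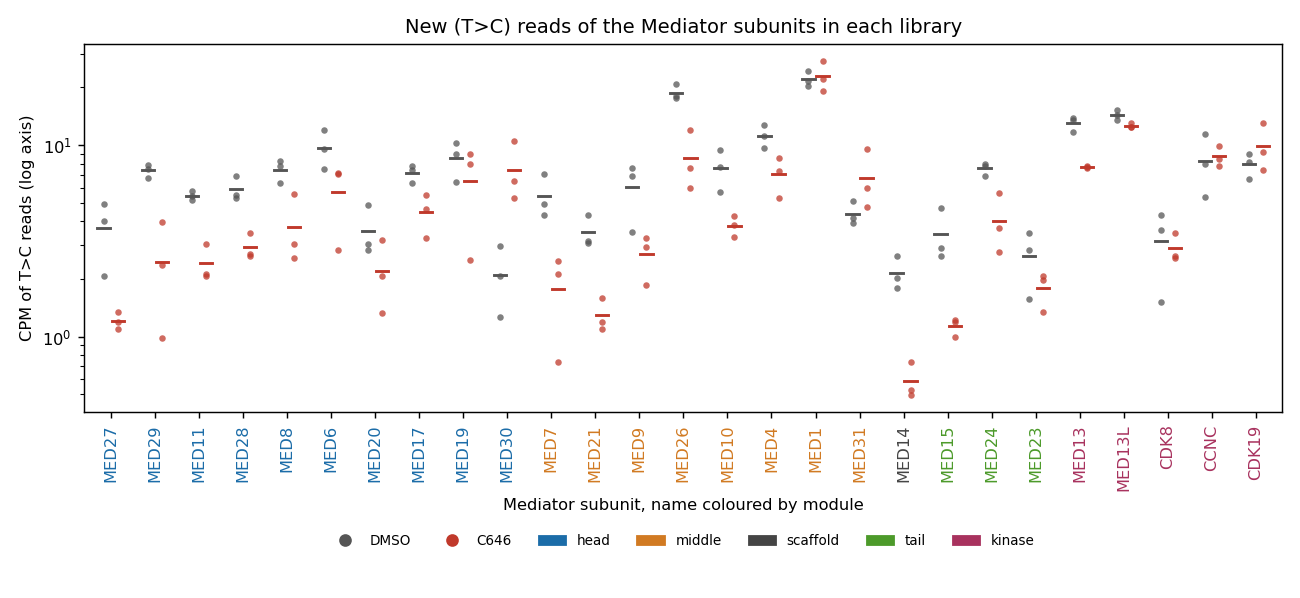
T>C reads as CPM (log axis) of the 27 tested Mediator genes in each of 3 DMSO (grey) and 3 C646 (red) libraries; points are libraries, bars the means of 3, and gene names are coloured by module and ordered within it by fold change. MED30 is the head gene whose C646 libraries all lie above DMSO, those of MED14 lie farthest below DMSO, and the groups overlap in 3 of the 5 kinase module genes (CDK8, CDK19 and CCNC). Levels are to be compared within a gene only.

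In the head module, whose subunits contact the polymerase, 10 of 12 genes were tested, 3 were called lower and 1 higher, with a median of −0.87. MED29 gave 7.48, 7.9 and 6.73 T>C CPM in DMSO and 2.38, 0.980 and 3.97 in C646 (CPM, counts per 1000000 reads). All C646 libraries lay below all DMSO libraries, with replicate 2 lowest, and the fall was 2.95-fold (log2 fold change −1.56, standard error 0.37, adjusted p = 0.00081). MED27, its neighbour in the complex, gave 4.95, 2.08 and 4.04 T>C CPM in DMSO and 1.19, 1.35 and 1.09 in C646. The groups were apart, and DMSO varied more than C646 (log2 fold change −1.61, standard error 0.48, adjusted p = 0.0055). MED11, a small head subunit, gave 5.16, 5.41 and 5.79 T>C CPM in DMSO and 2.12, 3.06 and 2.08 in C646, again without overlap (log2 fold change −1.17, standard error 0.36, adjusted p = 0.0074). The remaining head genes with values below 0 were MED28 (−0.99), MED8 (−0.98), MED6 (−0.76), MED20 (−0.71), MED17 (−0.69) and MED19 (−0.37), with adjusted p from 0.012 to 0.34.

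MED30, a metazoan subunit at the border of head and tail, went the other way. Its libraries held 12, 15 and 22 T>C reads in DMSO and 40, 53 and 106 in C646, or 1.26, 2.08 and 2.96 T>C CPM in DMSO and 5.29, 6.49 and 10.5 in C646. Each C646 library was above each DMSO library. The rise was 3.6-fold (log2 fold change 1.85, standard error 0.37, adjusted p = 0.00015), which placed MED30 at rank 122 of the 7722 tested genes from the highest. The rise was called whichever library was left out (log2 fold change 1.5 to 2.18).

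Of the 8 genes of the middle module, all tested, 3 were called lower and none higher (by DESeq2, 2 and 0), with a median of −1.07. MED26, the docking site for the super elongation complex, gave 20.8, 18.0 and 17.6 T>C CPM in DMSO and 12.0, 6.0 and 7.64 in C646, with no overlap and a 2.21-fold fall (log2 fold change −1.14, standard error 0.24, adjusted p = 0.0002). MED7, which forms the hinge of the module with MED21, gave 4.95, 7.07 and 4.31 T>C CPM in DMSO and 2.12, 0.735 and 2.48 in C646, again with replicate 2 lowest (log2 fold change −1.59, standard error 0.42, adjusted p = 0.0021). MED9 gave 7.59, 6.93 and 3.5 T>C CPM in DMSO and 1.85, 2.94 and 3.27 in C646, where the highest C646 and the lowest DMSO library were close (log2 fold change −1.15, standard error 0.37, adjusted p = 0.0094). MED10 was just outside the fold criterion, with 9.38, 5.68 and 7.67 T>C CPM in DMSO and 3.84, 3.31 and 4.27 in C646 (log2 fold change −0.995, standard error 0.31, adjusted p = 0.0075). MED21 gave −1.44 (adjusted p = 0.0103) and MED4 −0.65 (adjusted p = 0.032). MED1, the contact of nuclear receptors, stood at 0.059 (adjusted p = 0.81), and MED31, a highly conserved subunit, at 0.63 (adjusted p = 0.091).

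The scaffold gene MED14 had the lowest log2 fold change of the 27 tested Mediator genes, on few reads. There were 25, 13 and 15 T>C reads in DMSO and 4, 6 and 5 in C646, or 2.63, 1.8 and 2.02 T>C CPM in DMSO and 0.529, 0.735 and 0.496 in C646, a 3.64-fold fall (log2 fold change −1.86, standard error 0.58, adjusted p = 0.0076). In the tail, 3 of 5 genes were tested and 1 was called lower, with a median of −0.89. This was MED15, which is bound by activators such as SREBP, with 2.63, 2.91 and 4.71 T>C CPM in DMSO and 1.19, 1.23 and 0.992 in C646 and no overlap (log2 fold change −1.58, standard error 0.49, adjusted p = 0.0072). The tail genes MED24 (−0.89, adjusted p = 0.016) and MED23 (−0.52, adjusted p = 0.37) did not pass. MED16, which was not tested, had 6, 4 and 3 T>C reads in DMSO and 0, 1 and 0 in C646, and MED25 had 7, 5 and 5 T>C reads in DMSO and 0, 5 and 6 in C646.

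In the kinase module 5 of 7 genes were tested, none was called in either direction by edgeR or DESeq2, and the median was −0.12. With scaling on the T>C reads, CDK19 was called higher (log2 fold change 1.15, edgeR, adjusted p = 0.00094). At an unadjusted p under 0.05, 1 was lower (MED13) and 0 higher. MED13, which joins the kinase module to the core, had 11.7, 13.9 and 13.6 T>C CPM in DMSO and 7.8, 7.72 and 7.64 in C646, the 3 C646 libraries lying close together below DMSO (log2 fold change −0.75, standard error 0.23, adjusted p = 0.0071). Its paralogue MED13L had 15.3, 14.3 and 13.5 T>C CPM in DMSO and 13.1, 12.4 and 12.4 in C646, where the groups were apart by little (log2 fold change −0.19, standard error 0.21, adjusted p = 0.46). CDK8 gave 3.58, 1.52 and 4.31 T>C CPM in DMSO and 2.65, 2.57 and 3.47 in C646 with overlapping groups (log2 fold change −0.12, standard error 0.43, adjusted p = 0.83), and its paralogue CDK19 gave 8.12, 6.65 and 9.02 T>C CPM in DMSO and 9.26, 13.0 and 7.44 in C646, also overlapping (log2 fold change 0.31, standard error 0.26, adjusted p = 0.31). CCNC, the cyclin partner of both kinases, was at 0.087 (adjusted p = 0.8). MED12, which activates the kinase, had 17, 1 and 9 T>C reads in DMSO and 4, 7 and 7 in C646 and was not tested. The module difference was not tested, and with scaling on the T>C reads the kinase median was 0.71, above 0, and that of the head, middle and tail −0.043, −0.24 and −0.068. With MED27 to MED30 counted in the tail, as other structural work does, the medians were −0.73 for the head and −0.99 for the tail. In the odds of a T>C read within a gene, taken up below, the kinase median was −1.25 and 3 of 5 genes were called lower.

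Most of these falls of single genes depended on the libraries. Without 1 library at a time, 2 to 8 Mediator genes were called lower. MED29 was called each time (adjusted p at most 0.0079), and MED26 each time but without C646 replicate 2, where its log2 fold change was −0.95. MED7 lost its call without C646 replicate 2 (adjusted p = 0.016) and without DMSO replicate 2 (0.027). MED27 kept it only without DMSO replicate 2, and MED11 only without C646 replicate 2; the largest adjusted p were 0.063 and 0.034. MED9 lost it without replicate 1 or 2 of either group, with adjusted p from 0.02 to 0.089, and MED14 and MED15 lost it whichever library was left out (adjusted p up to 0.064 and 0.076). By DESeq2, 3 Mediator genes were called lower, MED29, MED7 and MED26, and with all filtered reads as library size 2 were, MED29 and MED7. MED30 was called higher in all of these. Of the genes that passed by the adjusted p alone, MED10 did so only without C646 replicate 3 or DMSO replicate 2 (otherwise up to 0.077), and MED13 did not with any library left out (up to 0.034).

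The second comparison took all reads, the pool of old and new RNA. Here 30 Mediator genes were tested, 18 were below 0 and 12 above, and the median log2 fold change was −0.054 (−0.0029 over all 10835 genes tested). Of these 10835 genes, 50.3% were below 0. MED9 was called lower and MED30 and CDK8 higher, where 1.87% of all genes were lower and 5.92% higher. By the adjusted p alone, 5 genes fell (MED27, MED29, MED7, MED9 and MED26) and 5 rose (MED30, MED1, MED31, MED13L and CDK8), against 6.28% and 9.86% of all genes. The T>C reads are part of all reads, so the fits share them.

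MED30 rose most. It had 84, 75 and 127 reads in DMSO and 328, 424 and 800 in C646, or 8.85, 10.4 and 17.1 CPM in DMSO and 43.4, 52.0 and 79.4 in C646, a 4.84-fold rise (log2 fold change 2.28, standard error 0.26, adjusted p = 3.9e-05) and rank 125 of the 10835 tested genes from the highest. C646 replicate 3 was highest, and without it the log2 fold change was 1.98. Reads not counted as T>C reads were also more frequent, at 10.0 ± 3.59 in DMSO and 50.8 ± 16.1 CPM in C646 (mean ± SD, n = 3). CDK8 gave 16.3, 8.04 and 14.1 CPM in DMSO and 20.6, 30.8 and 41.1 in C646, without overlap, a 2.39-fold rise (log2 fold change 1.26, standard error 0.27, adjusted p = 0.0036). DMSO replicate 2 was lowest and C646 replicate 3 highest, and the call was lost without either of them or without C646 replicate 2 or DMSO replicate 3 (log2 fold change 0.99 to 1.33, adjusted p 0.011 to 0.017). CDK19 gave 64.5, 65.4 and 74.2 CPM in DMSO and 95.7, 83.1 and 87.8 in C646, all C646 libraries above DMSO, and did not pass (log2 fold change 0.39, standard error 0.14, adjusted p = 0.042).

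MED13L had 62.0, 53.5 and 62.2 CPM in DMSO and 107, 104 and 112 in C646, with little spread in either group, and rose 1.82-fold (log2 fold change 0.86, standard error 0.13, adjusted p = 0.00042). It passed the test whichever library was left out. MED13 had 42.7, 43.1 and 46.2 CPM in DMSO and 51.2, 49.5 and 53.9 in C646, also with all C646 libraries on top, but by less and without passing (log2 fold change 0.23, standard error 0.14, adjusted p = 0.23). MED12, with 24.0, 17.6 and 21.1 CPM in DMSO and 23.1, 23.9 and 22.6 in C646, overlapped (log2 fold change 0.15, standard error 0.18, adjusted p = 0.57). Together with CCNC (0.042) all 6 tested kinase module genes were above 0, with a median of 0.31, and 2 of them passed. Of the tail genes all 5 were below 0, from −0.74 in MED16 to −0.058 in MED24, and none passed (by edgeR, 1 at an unadjusted p under 0.05). At that p, 20.5% of all genes were lower and 22.1% higher. By sign alone, 50.3% of all genes were below 0. The difference between the modules was not tested.

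MED31 gave 24.7, 28.3 and 37.6 CPM in DMSO and 46.9, 61.1 and 69.3 in C646, without overlap (log2 fold change 0.98, standard error 0.19, adjusted p = 0.0019), and MED1 116, 102 and 135 CPM in DMSO and 157, 172 and 220.4 in C646 (log2 fold change 0.64, standard error 0.16, adjusted p = 0.0077). In both, C646 replicate 3 was highest, and without it they stood at 0.85 (adjusted p = 0.0045) and 0.48 (adjusted p = 0.028). MED31 did not pass without C646 replicate 2 or DMSO replicate 1 or 2 (adjusted p up to 0.015), nor did MED1 without any of these 3 (up to 0.033). At the other end, MED9 gave 13.7, 11.9 and 10.5 CPM in DMSO and 7.01, 5.51 and 5.26 in C646, a 2.04-fold fall (log2 fold change −1.03, standard error 0.25, adjusted p = 0.0063) that stayed past both criteria only without C646 replicate 1 and otherwise had adjusted p from 0.011 to 0.037. MED7 gave 18.5, 17.2 and 12.7 CPM in DMSO and 7.27, 8.33 and 10.1 in C646 (log2 fold change −0.91, standard error 0.23, adjusted p = 0.0091), and MED29 gave 34.3, 39.1 and 33.3 CPM in DMSO and 21.2, 24.1 and 20.3 in C646 (log2 fold change −0.70, standard error 0.17, adjusted p = 0.0058). MED27 and MED26 stood at −0.74 and −0.73. MED29 no longer passed whichever library was left out (adjusted p up to 0.021). MED27 passed only without DMSO replicate 2, MED26 only without C646 replicate 1 and MED7 only without replicate 3 of either group (otherwise adjusted p up to 0.051, 0.050 and 0.051). The share of reads on 3′ UTRs was higher in C646, and its part in these results was not tested. With all filtered reads as library size, MED9 was at −0.83 and no longer called, none of the 5 genes that fell by the adjusted p passed (adjusted p 0.019 to 0.039), and MED13L (1.07) and MED31 (1.19) were called higher.

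**Figure D2:**
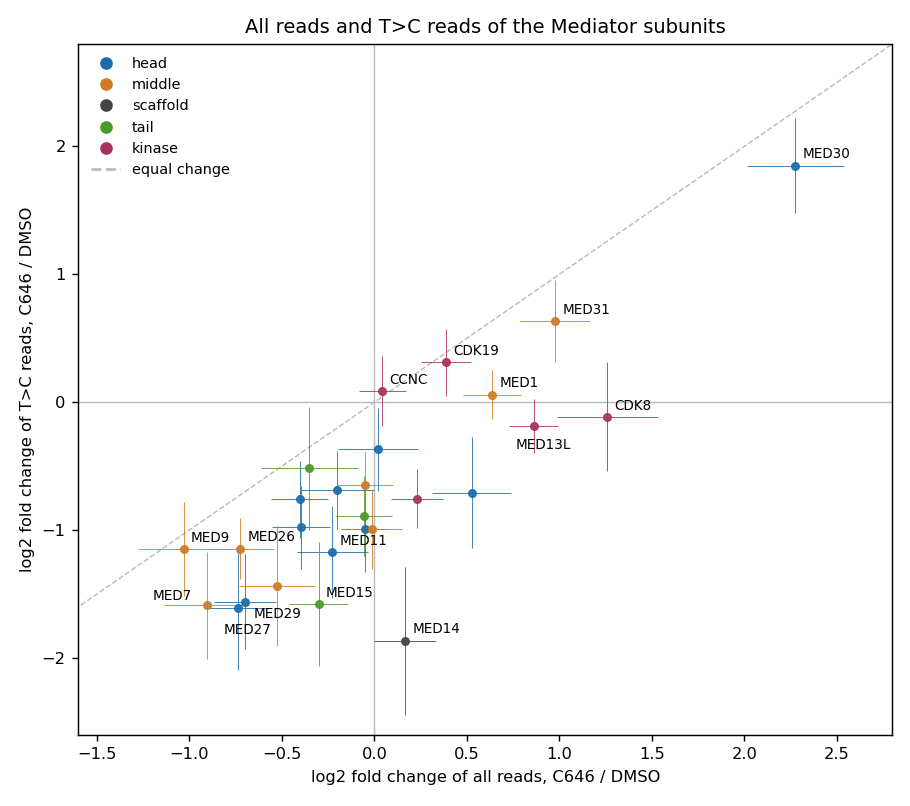
Log2 fold change of all reads (x axis) against that of T>C reads (y axis), C646 over DMSO, for the 27 Mediator genes tested in both; points are coloured by module, bars are standard errors of the fits, the dashed line marks equal change. MED30 is apart at the top right, and 26 of 27 genes lie below the dashed line, CCNC being the exception.

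Of the 27 genes, 16 were below 0 in both measures, 5 above 0 in both (MED30, MED31, MED1, CDK19 and CCNC) and 6 below 0 in T>C reads but above 0 in all reads. These 6 include MED14, MED13, MED13L and CDK8. The T>C change was below the change of all reads in 26 of the 27, as it was in 92.1% of all tested genes.

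The third comparison used the T>C share, the T>C reads of a gene as a percentage of its reads, which needs no scaling between libraries. Summed over the Mediator genes the share was 16.3, 15.7 and 14.9% in DMSO and 9.64, 9.63 and 10.7% in C646, a mean of 15.6% ± 0.661 against 10.0% ± 0.627 (SD, n = 3). The groups did not overlap, and a two-sided exact permutation test of 3 against 3 cannot go below p = 0.1. Over all genes tested, the median share was 13.2% ± 0.303 in DMSO and 7.08% ± 0.325 in C646. By module, the summed share went from 18.3% ± 1.26 to 11.8% ± 1.89 in the head, from 22.5% ± 1.34 to 13.4% ± 1.34 in the middle, from 5.5% ± 0.763 to 3.01% ± 0.643 in the tail and from 14.6% ± 0.958 to 9.92% ± 0.689 in the kinase module. The libraries of both groups were apart in each of these.

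In DMSO, the share after 1 h of labelling ranged from 4.32% in MED24 to 60.5% in MED26, with a median of 19.6% over the 27 genes (11.4% in C646). The share depends on how fast a transcript is renewed and on how many T bases the sequenced end holds, so that genes are not compared by it without that limit. MED26 had 64.6, 57.8 and 59.0% in DMSO and 53.2, 38.0 and 42.3% in C646 and lay above 97.3% of all tested genes in DMSO. MED9 had 55.4, 58.1 and 33.3% in DMSO and 26.4, 53.3 and 62.3% in C646, a wide spread in both groups. MED17 (43.2% ± 3.65), MED19 (42.1% ± 8.25) and MED7 (34.0% ± 7.21) came next. At the low end, MED24 had 5.68, 3.36 and 3.91% in DMSO and 1.64, 2.19 and 3.01% in C646, CCNC 6.01, 9.68 and 4.49% in DMSO and 6.4, 6.49 and 7.66% in C646 and MED28 6.83, 8.58 and 6.8% in DMSO and 3.25, 3.55 and 4.71% in C646. The DMSO libraries of MED24 and CCNC overlapped, as did those of CCNC and MED28, those of MED26 and MED9, and those of MED9, MED19, MED17 and MED7.

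**Figure D3:**
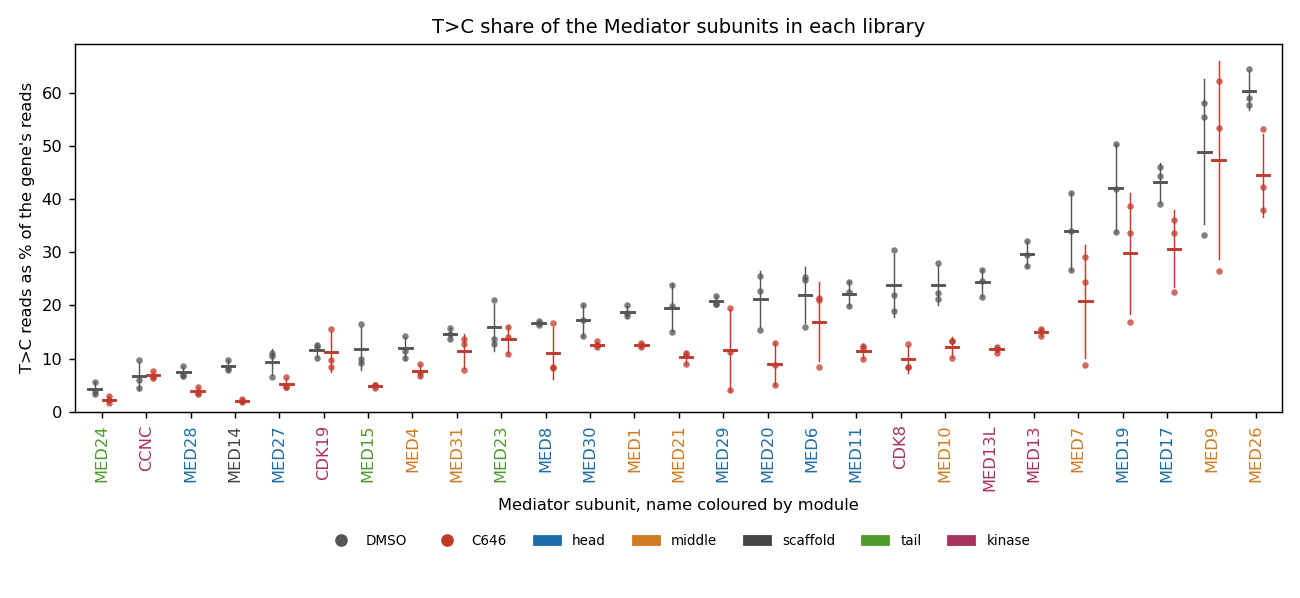
T>C reads as a percentage of all reads of each gene (y axis) for the 27 tested Mediator genes, ordered by the DMSO mean; points are the 3 DMSO (grey) and 3 C646 (red) libraries, horizontal bars the means and vertical bars 1 SD. The C646 libraries lie below all DMSO libraries in 18 genes and overlap with DMSO in 9, MED9, CDK19 and CCNC among them, and of all tested genes 64.5% lie below.

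In 18 of the 27 genes each C646 share was below each DMSO share, in 9 the groups overlapped, and in none were they the other way round, where 64.5% of all tested genes lay below and 2.18% above. Tested as the odds of a T>C read within a gene (edgeR, with a term for each library), 26 genes were below 0, with a median log2 change of −0.91 (−1.0 over all genes). Over all genes tested, 92.0% were below 0 in the odds. By both criteria 7 were lower and 0 higher: MED20, MED10, MED14, MED15, MED13, MED13L and CDK8. Of all genes 38.3% were called lower and 0.79% higher in this test. The median of the odds was −0.85 in the head, −0.81 in the middle, −0.91 in the tail and −1.25 in the kinase module. Called lower were 1 of 10 tested head genes, 1 of 8 middle, 1 of 3 tail and 3 of 5 kinase module genes. Differences between modules were not tested. At the adjusted p alone, MED28, MED1 and MED24 were lower too, 10 in all, and none was higher (44.8% and 1.14% of all genes). At an unadjusted p under 0.05, 16 Mediator genes were lower and 0 higher (64.8% and 1.88% of all genes).

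The lowest odds were those of MED14, whose share was 9.8, 7.93 and 8.24% in DMSO and 1.88, 2.45 and 1.97% in C646 (log2 fold change −2.13, standard error 0.48, adjusted p = 0.00064), while its reads in all were at 0.17 (adjusted p = 0.47). In the kinase module, MED13L had a share of 24.7, 26.7 and 21.6% in DMSO and 12.2, 11.9 and 11.1% in C646 (log2 fold change −1.27, standard error 0.24, adjusted p = 0.00011), MED13 27.4, 32.2 and 29.4% in DMSO and 15.2, 15.6 and 14.2% in C646 (log2 fold change −1.25, standard error 0.28, adjusted p = 0.00067) and CDK8 21.9, 19.0 and 30.5% in DMSO and 12.8, 8.37 and 8.45% in C646 (log2 fold change −1.58, standard error 0.42, adjusted p = 0.0029). In each of the 3 the groups were apart. CDK19, by contrast with its paralogue, overlapped, with 12.6, 10.2 and 12.2% in DMSO and 9.67, 15.6 and 8.47% in C646 (log2 fold change −0.10, standard error 0.28, adjusted p = 0.77), and whether CDK8 and CDK19 differ was not tested. MED20, of the movable jaw, had 22.8, 25.6 and 15.3% in DMSO and 5.05, 12.9 and 8.71% in C646 (log2 fold change −1.46, standard error 0.45, adjusted p = 0.0077), MED10 28.1, 21.1 and 22.4% in DMSO and 13.3, 10.0 and 13.4% in C646 (log2 fold change −1.18, standard error 0.34, adjusted p = 0.0055) and MED15 9.12, 9.95 and 16.5% in DMSO and 4.95, 5.1 and 4.44% in C646 (log2 fold change −1.37, standard error 0.44, adjusted p = 0.00973). MED30, with 14.3, 20 and 17.3% in DMSO and 12.2, 12.5 and 13.2% in C646, had lower shares in all C646 libraries and did not pass (log2 fold change −0.52, standard error 0.37, adjusted p = 0.22).

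The odds calls of MED14, MED13 and MED13L held whichever library was left out (adjusted p at most 0.0080). CDK8 lost its call without C646 replicate 2 or 3 or DMSO replicate 1 or 3 (adjusted p 0.012 to 0.034), MED10 without C646 replicate 2 or any DMSO library (0.014 to 0.049), MED20 without any library but C646 replicate 2 (0.011 to 0.046), and MED15 without any one library (0.016 to 0.076). Of the other genes that passed, MED28 did so only without C646 replicate 3, MED1 only without a C646 library and MED24 only without C646 replicate 3 or DMSO replicate 2 (otherwise adjusted p up to 0.039, 0.020 and 0.061).

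**Figure D4:**
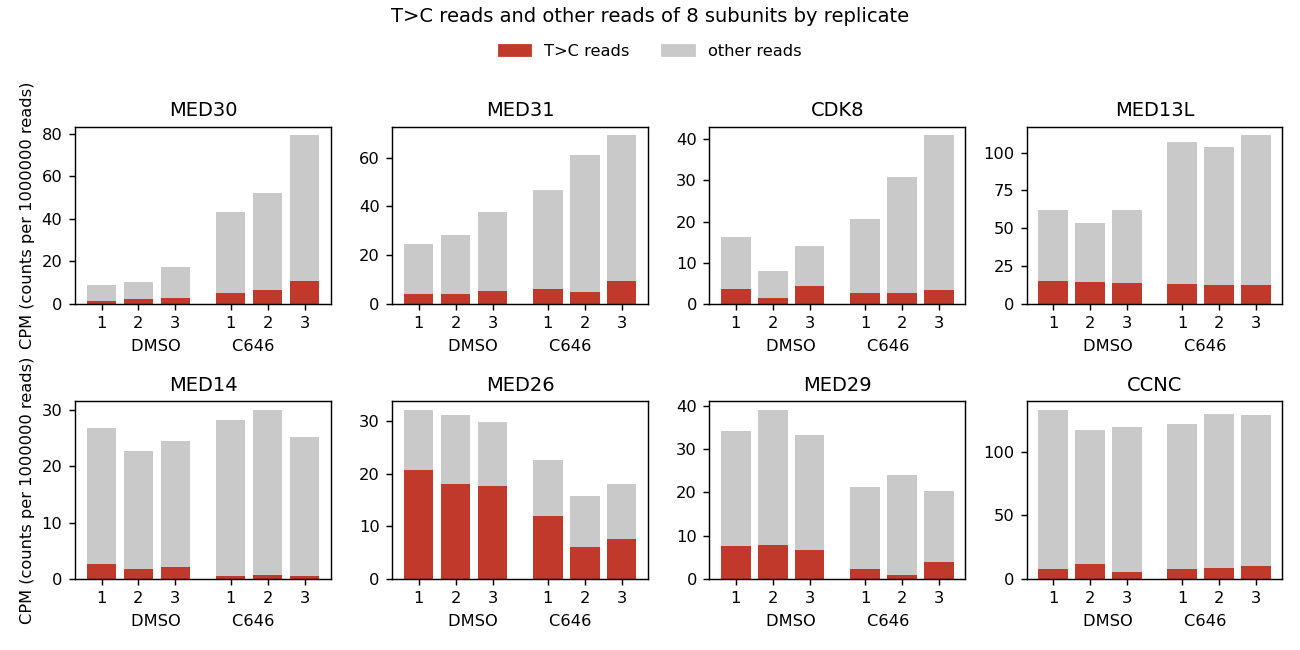
CPM of 8 Mediator genes in each library, split into T>C reads (red) and other reads (grey); the x axis gives the replicate, 3 of DMSO on the left and 3 of C646 on the right, and each panel has its own y axis from 0. MED30 gains both kinds of read, CDK8 and MED13L gain other reads while the red part stays near its DMSO height, MED14 loses its T>C reads at a similar total, and CCNC is alike in both groups.

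The reads not counted as T>C reads, which include the RNA made before labelling, were above all DMSO libraries in every C646 library in 9 of the 30 genes tested in all reads and below in 6 (MED27, MED29, MED7, MED26, MED15 and MED16), while 15 overlapped. Of all genes tested in all reads, 29.9% lay above and 17% below. In MED13L they went from 44.9 ± 5.0 to 95.0 ± 3.89 CPM, while the T>C reads were 14.3 ± 0.911 and 12.6 ± 0.407 (mean ± SD, n = 3). In CDK8 they went from 9.7 ± 3.12 to 27.9 ± 9.81 CPM, and in MED20 from 13.6 ± 4.15 to 22.7 ± 1.87. These 3 are among the 9, as are MED30, MED14, MED13 and CDK19. So are MED1 and MED31, with 95.8 ± 14.8 against 160.2 ± 29.0 and 25.8 ± 6.02 against 52.4 ± 10.0. These values were not tested.

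Only 6 of the 33 Mediator genes had several 3′ UTR entries, so the reads of the others could be counted in 1 place only. Coding transcripts in GENCODE also end outside the entries. These were 2 of 3 for MED14, 4 of 6 for MED26, 1 of 3 for CDK8, 4 of 7 for MED13L and 0 of 2 for MED30. The UTR of MED30 holds 284 bases, that of MED14 lies at chrX:40649543-40651805, minus strand, that of MED26 at chr19:16574907-16576026, minus strand, that of CDK8 at chr13:26404082-26405236, plus strand and that of MED13L at chr12:115958576-115961265, minus strand (GRCh38, each annotated as UTR in GENCODE release 44). MED23, a tail subunit known from its contact with ELK1, had the highest share of reads on a second 3′ UTR entry. MED16 had 13.1% of its DMSO reads on a second entry, which lies on an alternative contig, and MED27, MED21 and MED24 had 15, 6 and 2 reads on one over all libraries. The MED23 entry at chr6:131573966-131574292 held 46.2, 39.6 and 26.0% of the reads of the gene in DMSO and 27.7, 30.7 and 17.3% in C646, which overlap, and the rest lay at chr6:131586738-131587678. In DMSO the T>C share was 20.6 to 25.7% on the entry with more reads and 2.78 to 7.69% on the other, which had 2 T>C reads in each library.

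The genes that Mediator works with were described in the same way. Of the 12 subunits of RNA polymerase II, 11 were tested for T>C reads, and 7 were called lower and none higher (by DESeq2, 6 and 0), with a median of −1.13, where 33% of all genes were called lower and 2.97% higher. Scaled on the T>C reads, 1 was called lower and 1 higher, with a median of −0.30. The largest falls were those of POLR2L (log2 fold change −2.44, standard error 0.31, adjusted p = 1.6e-07) and POLR2F (log2 fold change −1.97, standard error 0.34, adjusted p = 2.2e-05), small subunits shared with the other polymerases. In all reads POLR2B, the second largest subunit, was called higher (log2 fold change 1.58, standard error 0.28, adjusted p = 0.00097), and none of the 11 was called lower (4 at an unadjusted p under 0.05). Of 15 factors known to work with Mediator, such as CBP, p300, the super elongation complex and cohesin, 11 were tested for T>C reads. Of these 2 were called lower, ELL (log2 fold change −2.94, standard error 0.32, adjusted p = 9.5e-09), an elongation factor that MED26 recruits, and CCNT1, the cyclin of P-TEFb (log2 fold change −1.11, standard error 0.19, adjusted p = 1.4e-05), and none higher by edgeR or DESeq2, with a median of −0.45. Scaled on the T>C reads the median turned to 0.29, with 9 of 12 tested factors above 0 and 1 called lower. Over all genes, 49.8% were below 0 with that scaling. In all reads 14 were tested, none was called lower (1 at an unadjusted p under 0.05) and 3 higher (1.87% and 5.92% of all genes), led by MNAT1 (log2 fold change 3.01, standard error 0.49, adjusted p = 0.00062) and CCNH (log2 fold change 1.80, standard error 0.24, adjusted p = 0.00016), which form the kinase of TFIIH with CDK7. MNAT1 had only 13, 3 and 5 reads in DMSO and 47, 34 and 105 in C646. In the odds of a T>C read, 3 polymerase subunits and 4 of these factors were called lower, 3 of 11 and 4 of 11 tested, against 38.3% of all genes.

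Of the targets of the inhibitor, CREBBP (CBP) gave 9.91, 11.6 and 7.0 T>C CPM in DMSO and 8.07, 10.9 and 7.34 in C646 (log2 fold change −0.12, standard error 0.26, adjusted p = 0.71) and 33.4, 33.7 and 23.3 CPM in DMSO and 45.2, 45.6 and 41.7 in C646 in all reads (log2 fold change 0.55, standard error 0.17, adjusted p = 0.025). EP300 (p300) gave 39.4, 26.2 and 40.1 T>C CPM in DMSO and 21.2, 23.9 and 16.2 in C646, with all C646 libraries below DMSO (log2 fold change −0.79, standard error 0.20, adjusted p = 0.0012), and 164, 96.3 and 137 CPM in DMSO and 148, 132 and 97.1 in C646 in all reads, which overlapped (log2 fold change −0.076, standard error 0.19, adjusted p = 0.79). EP300 thus passed the adjusted p but not the fold criterion for T>C reads, and CREBBP passed neither. Scaled on the T>C reads, EP300 was at 0.046 (edgeR, adjusted p = 0.89) and no longer passed, and CREBBP was at 0.72 (adjusted p = 0.032).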

How the data were processed

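SLAM-seq libraries of MOLM-13 cells (3 DMSO, 3 C646) were analysed from the tables deposited by the authors, who aligned reads to GRCh38 and annotated them to 3′ UTRs with SLAM-Dunk 0.4.1 (CASAVA 1.9 is also named in the submitters' processing notes). The authors' tables hold raw counts per 3′ UTR entry (58136 per library) of all reads, T>C reads, conversions and multimapped reads, without normalization. They also hold a signal, the deposited read coverage on T positions, and reads as CPM, which the authors' software computed from the filtered reads of each library. Of the values per entry and library, 40858 held fewer than 2 conversions per T>C read, and 3905 of these fewer conversions than T>C reads, so that the least number of conversions in a T>C read was not fixed from the tables, and T>C reads were used as deposited. The study's own test used reads with 2 or more. No unlabelled library was used here, so the background of T>C reads is not known.

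Counts were summed over the entries of a gene. edgeR 4.0.16 in R 4.3.3 (filterByExpr, glmQLFit, glmQLFTest, Benjamini-Hochberg adjustment over all tested genes) compared C646 with DMSO in T>C reads, in all reads and in the odds of a T>C read within a gene (library factor and T>C by treatment term). T>C reads were scaled by the TMM totals of all reads. Genes were called at adjusted p of at most 0.01 and absolute log2 fold change of at least 1. Standard errors were taken as the size of the log2 fold change over the square root of the F statistic. CPM values in the text use the same library sizes, per 1000000 reads. T>C reads of the tested Mediator genes averaged 11.3 to 190 per library (median 46.8), which sets the precision. The fits were checked on simulated data without a fall across all genes. The changed genes there were drawn from genes with more T>C reads in DMSO, on average, than MED14. The check therefore does not cover the fall across all genes or so few reads.

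Alternatives were DESeq2 1.42.0, other library sizes, no filter, the single 3′ UTR entry with most reads, a replicate block, each library left out and MED27 to MED30 in the tail module. Library values are given for Mediator genes called in any fit, for the kinase paralogues and for CREBBP and EP300. Of the called genes of each partner list, at most the 2 largest falls and 2 largest rises are named, and the rest are counted. One further gene of the second list was left out of these counts and is not reported here. The genes, modules and partner lists were chosen with earlier results of these data known. Promoters are those of RefSeq. Tables and plots were made with Python 3.11.15, pandas 2.3.3, numpy 2.4.6, scipy 1.17.1 and matplotlib 3.10.9.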

Additional observations from a re-analysis of the deposited data

How the results depend on the processing

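The Mediator calls depended on the scaling, on the test used and on single libraries, and the cause was not tested. In T>C reads 8 Mediator genes were called lower. The count was 3 by DESeq2, 0 with TMM on the T>C reads, 2 with all filtered reads as library size, 5 with a replicate block (4 of them among the 8) and 2 to 8 without 1 library (2 to 4 of them among the 8). With TMM on the T>C reads, 3 were called higher in place of 1, and the medians were 0.070 (all), −0.043 (head), −0.24 (middle), −0.068 (tail) and 0.71 (kinase). That scaling turned MED6 (0.070), MED17 (0.15), MED19 (0.45), MED20 (0.12), MED4 (0.18), MED23 (0.31), MED13 (0.079), MED13L (0.65) and CDK8 (0.71) to above 0. With all filtered reads, T>C medians were −0.55 (all), −0.87 (middle) and 0.092 (kinase), MED13L (0.018) and CDK8 (0.092) were above 0, and in all reads 0 were called lower and 4 higher, the median was 0.15, and MED17 (0.0054), MED28 (0.15), MED4 (0.16), MED10 (0.19) and MED24 (0.15) were above 0. The kinase median was −0.16 by DESeq2 and −0.050 with the block.

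Without 1 library, the T>C median over all tested Mediator genes was −0.96 to −0.75, that of the middle −1.10 to −0.87 and that of the kinase module −0.19 to −0.0046. In all reads 0 to 1 were then called lower and 1 to 3 higher, and in the odds 3 to 8 lower. Single genes that turned sign without a library were, in T>C reads, CCNC (−0.14 to 0.37), CDK8 (−0.44 to 0.17), MED1 (−0.096 to 0.18) and MED19 (−0.68 to 0.0088), in all reads MED10 (−0.12 to 0.053), MED19 (−0.089 to 0.21), MED23 (−0.54 to 0.039), MED24 (−0.21 to 0.038) and MED4 (−0.12 to 0.072), and in the odds CCNC (−0.17 to 0.40), CDK19 (−0.41 to 0.11), MED23 (−0.37 to 0.034) and MED9 (−0.60 to 0.50). None of these had passed the test in question with all libraries and library sizes of all reads. Leaving out the filter ended the T>C calls of MED11 and MED14 and the odds call of MED15 (adjusted p = 0.014), which the single 3′ UTR entry ended too (0.0101), each leaving 6 in place of 7.

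Neither the labels nor the methods say whether the replicate numbers pair the libraries, and they were not taken to do so. Deviations of same-numbered libraries correlated by 0.030 to 0.065 in T>C reads (mean 0.046) and −0.0014 to 0.23 in all reads (mean 0.12). For libraries of different number the means were −0.023 and −0.064. With 3 libraries per group these values cannot settle the pairing. With the replicate block, MED14, MED15, MED27 and MED9 lost the T>C call and MED8 gained it, MED10 and MED15 lost the odds call (5 left), MED19 was at −0.0043 in all reads, and the 3 calls in all reads were the same genes.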

Other observations

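The subunit pairs that can replace each other were also set side by side by how the C646 libraries lay against DMSO. In CPM of all reads, MED13 and MED13L, CDK8 and CDK19 had all C646 libraries above DMSO, while MED12 overlapped and MED12L was at 0 throughout. In CPM of T>C reads, MED13 and MED13L had all C646 libraries below DMSO and CDK8 and CDK19 overlapped. How many of all genes lay in these ways was not counted, so the positions are a description only. Differences between the members of a pair were not tested.

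The head genes MED27, MED28, MED29 and MED30, which were also counted in the tail as an alternative, gave log2 fold changes of T>C reads of −1.61, −0.99, −1.56 and 1.85, so this group of 4 held both called falls and the one called rise of the head module besides MED11. In MED30 all 3 C646 libraries were above all 3 DMSO libraries in both T>C reads and all reads.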
